A study of Rattus norvegicus with 4 samples.

Results

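The genes described here encode the protein parts of the cytosolic ribosome. They were chosen by name: gene probes whose RefSeq accession maps to a rat symbol that starts with Rpl or Rps and a digit, together with Rpsa and Fau, leaving out the Rps6k kinases, Rps19bp1 and pseudogene names. The rule gave 88 genes among 16581 named genes on the array, read by 202 of 45598 probes, and all 88 are annotated as protein coding. Of them, 35 belong to the small subunit and 53 to the large subunit; 73 are core genes, 4 are named paralogues (Rpl3l, Rpl22l1, Rps27l and Rps4y2) and 11 are numbered copies. Of 80 ribosomal proteins in a standard list, 73 had a gene in this set, 5 were measured under names outside the rule (among them the stalk proteins Rplp0, Rplp1 and Rplp2), and Rps9 and Rpl37 were not measured under those names.

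The RNA came from NR8383, a macrophage line established from the lung lavage of a normal rat, after 20 passages. The 4 samples form 1 group: flasks cultured for 48 h, then given NRCWE049, carbon nanotubes that carry amino groups, at 1.2 cm²/cm² for 4 h. The series' design text calls them 4 biological replicates. Its unexposed cells were not analysed here, so every value below describes exposed cells, and no effect of the nanotubes can be read from them. A single cell line stands for the macrophage, and fewer cells and less RNA per cell cannot be told apart on bulk arrays.

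The cytosolic ribosome has a small subunit, which reads the messenger RNA, and a large subunit, which joins the amino acids and holds the tunnel through which the new chain leaves. Ribosomal RNA forms the active centres, and most ribosomal proteins are made in matched amounts and assembled with it in the nucleolus. In mammals most of these messages begin with a run of pyrimidines, through which mTOR and the RNA-binding protein LARP1 control their translation. Their abundance on an array therefore says nothing about how much they were translated.

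The start of the transcript is shown first because the pyrimidine run is the feature these genes are best known to share. RefSeq promoters on GRCr8 were found for 70 of the 88 genes, 58 core genes and 12 paralogues or copies. A run was counted where a C within 5 bases of the annotated start was followed by at least 4 further C or T. It was present in 62.1% of the core genes, 36 of 58, and in 16.7% of the paralogues and copies, 2 of 12, against 17.0% of all 33469 promoters. Each of these genes was counted by a single promoter, the first by chromosome position. The background counts every promoter, those of these genes among them. Each window below holds 45 bases before the start and 15 after it, and capitals mark the counted run from that C on. Pyrimidines directly before that C stay in small letters, as in Rps24 and Rpl35. A pyrimidine stretch can therefore be longer than its capitals. Of the first 4 genes shown, Rps24, Rpl35 and Rpl13 had SDs of 0.327, 0.313 and 0.311 between replicates, and Rpl28 had 0.052. They were named for being among the largest or smallest SDs.
Rps24, chr16:96472-96531, + strand: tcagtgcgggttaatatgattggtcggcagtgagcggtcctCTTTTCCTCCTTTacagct
Rpl35, chr3:43165907-43165966, - strand: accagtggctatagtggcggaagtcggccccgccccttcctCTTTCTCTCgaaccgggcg
Rpl13, chr19:68062469-68062528, + strand: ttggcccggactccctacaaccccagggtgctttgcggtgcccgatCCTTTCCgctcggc
Rpl28, chr1:78083518-78083577, - strand: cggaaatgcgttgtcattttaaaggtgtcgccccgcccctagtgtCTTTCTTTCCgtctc
Fau, chr1:212779468-212779527, + strand: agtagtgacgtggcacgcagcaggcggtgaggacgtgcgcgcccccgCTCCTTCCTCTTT
The windows of Rpl5 and of the paralogues Rpl22l1 and Rpl3l, where no such run was counted, are shown beside them. The Rpl5 window does hold a pyrimidine stretch, but it begins more than 5 bases before the annotated start and so was not counted.
Rpl5, chr14:1995211-1995270, - strand: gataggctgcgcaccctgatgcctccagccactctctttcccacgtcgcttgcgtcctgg
Rpl22l1, chr2:113683151-113683210, + strand: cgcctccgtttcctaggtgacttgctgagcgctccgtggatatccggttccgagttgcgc
Rpl3l, chr10:14258401-14258460, + strand: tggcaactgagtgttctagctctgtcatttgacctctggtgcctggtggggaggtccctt

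Other motifs were searched on both strands of the full 300 bases, from 250 before the start to 50 after it. CTCTTT was found in 53.4% of the core promoters, against 23.5% of all promoters, and CTTTCC in 50.0%, against 26.4%; these letters can overlap the run. CCGGAAG, a core of ETS factor sites, was found in 31.0% of the core promoters, against 8.75% of all. AAGATGG, the core of the YY1 motif, was found in 17.2%, against 7.01%, and the TATA box letters TATAAA in 8.62%, against 14.2%. A match describes the letters in the window and is not evidence of binding, and a run missing at an annotated start says only that these letters are not there.

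**Figure D1:**
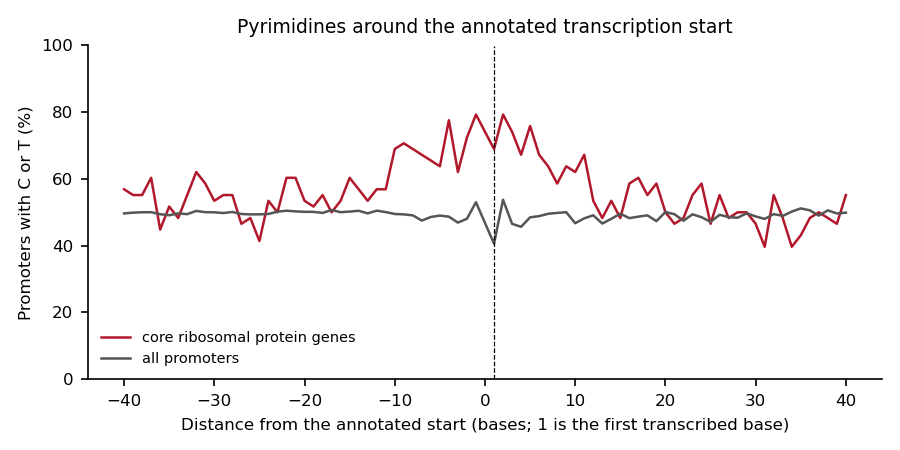
Share of promoters with C or T at each base from 40 before to 40 after the annotated start, for 58 core ribosomal protein genes (red) and 33469 promoters (grey). Just after the start, at position 2, 79.3% of the core genes had a pyrimidine, against 53.8% of all promoters.

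A level below is the log2 processed signal of a probe minus the array's 75th percentile over the probes detected on all arrays. A gene takes the level of its brightest detected probe, and levels of different genes are not set against each other, since probes differ in affinity. A gene was detected where a probe was well above background on all 4 arrays. Almost every ribosomal protein gene was detected: 84 of 88, against 52.5% of all named genes, and 194 of their 202 probes. All 73 core genes were among the 84, as were 11 of the 15 paralogues and copies.

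The 4 genes that were not detected are copies or paralogues. Rps4y2, a paralogue of Rps4x, was well above background on 0 arrays, as were both probes of Rpl27l2. Rpl39l5 was well above background on 1 array and Rps12l4 on 2. Rpl3l, which in mammals replaces Rpl3 mainly in heart and skeletal muscle, was detected, with levels of -5.00, -4.82, -5.04 and -5.15 in replicates 1 to 4. The probe sequences are not in the files, so signal that a copy shares with its core gene cannot be told apart from its own. Probes of a gene disagreed for 2 genes: Rpl28 was detected by its probe with 10 spots, while its other probe was above background on 0 of 4 arrays, and Rpl36a was detected by 3 of 4 probes.

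The cells carried the markers of their label. All 10 macrophage markers listed were detected, and none of 6 epithelial, 5 fibroblast, 4 T and NK cell and 2 B cell markers was; Pecam1 and Cdh5 were detected among 4 endothelial markers. The 4 arrays shared 1 slide, so a replicate and its place on that slide cannot be told apart. The 75th percentile that set the scale was 1969.6, 1980.1, 2493.2 and 2402.5 signal units in replicates 1 to 4, and no spot was saturated. Replicates 3 and 4 were the closest pair over all detected genes, with a median absolute difference of 0.0847 log2, against 0.149 to 0.206 for the other pairs. Over 1039 probes with 10 spots, the median difference between them was 2.15 times its spot error, which would also hold for separate hybridisations of the same RNA. The design text gives them as separate replicates, and they were used as such.

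The ribosomal protein genes moved together between replicates. Relative to each gene's mean, their mean deviation was 0.12, 0.16, -0.08 and -0.20 log2 in replicates 1 to 4. Over all 8713 detected genes it lay between -0.01 and 0.01. Of the 84 genes, 76 had their lowest level in replicate 4, which is 90.5%, against a background of 23.7% of all detected genes. Both subunits took part: 41 of 42 core genes of the large subunit and 25 of 31 of the small subunit were lowest in replicate 4, and so were 10 of 11 paralogues and copies.

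**Figure D2:**
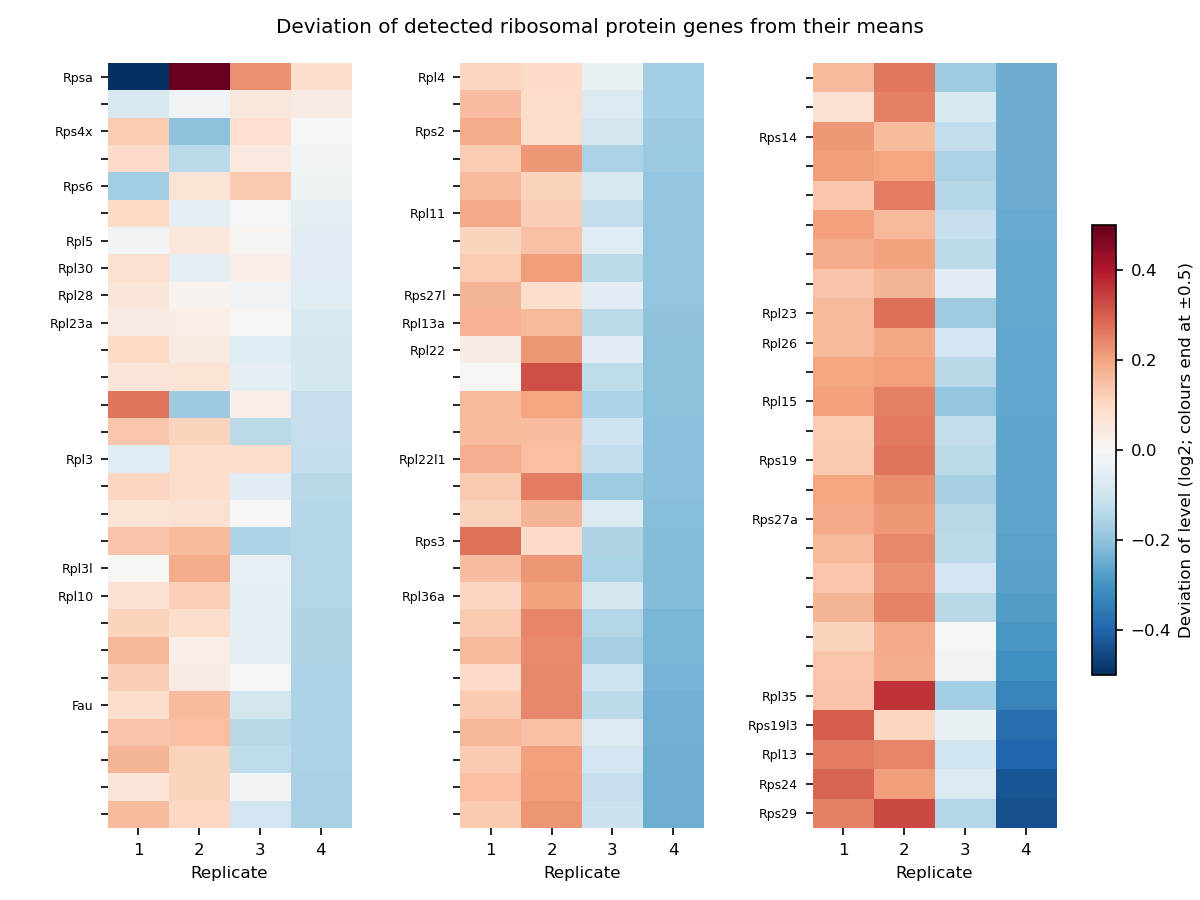
Deviation of the level from the gene's own mean (colour, log2) in each of the 4 replicates, for 82 of the 84 detected ribosomal protein genes, ordered by the deviation in replicate 4; rows of genes described in the text carry their names. Most rows are above their mean in replicates 1 and 2 and below it in replicates 3 and 4; Rpsa, at the top left, is far below its mean in replicate 1.

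The differences were small for single genes. The median SD over the 4 replicates was 0.198 log2, and the median ratio of the highest to the lowest replicate was 1.33, against 0.1515 and 1.26 over all detected genes. This order turned under other scalings: the median SD was 0.0665 against 0.150 over all detected genes with quantile normalization, 0.101 against 0.198 with the median of each array, and 0.0957 against 0.221 with no scaling. The ratio ranged from 1.08 to 2.59; 6 genes exceeded 1.5-fold, which 17.3% of the other detected genes did. The spread of each gene was tested in limma by an F test of its residual variance against the variance expected at its intensity, with Benjamini-Hochberg adjustment over 8713 genes. The test called 0 ribosomal protein genes, against a background of 0.0115%, 1 gene of 8713, and their lowest adjusted p was 0.671 (limma, n = 4). At an unadjusted p under 0.05 it gave 5 of the 84, against 4.3% of all genes. Of the 84, 67 (79.8%) lay above the variance expected at their intensity, against 46.6% of all detected genes. In simulated data for this test, genes with 3 times the expected SD were called in 0% of cases and genes with 20 times in 72.7%.

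Among the small subunit genes, Rps29, a zinc-binding protein near the messenger RNA, had levels of 6.80, 6.88, 6.41 and 6.11 in replicates 1 to 4 (SD 0.359). Rps24, mutated in some people with Diamond-Blackfan anaemia, was at 3.67, 3.59, 3.31 and 2.95 (SD 0.327). Both were lowest in replicate 4, followed by replicate 3. Rps19, the first gene linked to the same anaemia, was at 6.50, 6.63, 6.23 and 6.10, and Rps14, which is lost in a human myelodysplastic syndrome, at 5.76, 5.70, 5.42 and 5.30. Like most members, these genes were lowest in replicate 4.

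Rps3, which lies at the entry of the messenger RNA and also has a role in DNA repair, was at 5.96, 5.78, 5.53 and 5.47. Rps2, at the same entry, was at 5.74, 5.65, 5.46 and 5.37. Rps27a is made as a fusion of ubiquitin to a ribosomal protein and was at 6.11, 6.14, 5.79 and 5.66. Fau, made as a fusion to a ubiquitin-like protein, was at 5.64, 5.71, 5.46 and 5.40, a narrower span than that of Rps27a.

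Rps6, the ribosomal substrate of the S6 kinases downstream of mTOR, was at 3.92, 4.16, 4.23 and 4.07, lowest in replicate 1 and highest in replicate 3. Rps4x was at 3.38, 3.05, 3.34 and 3.24, lowest in replicate 2. Unlike most members, these 2 genes were not lowest in replicate 4. The p53-inducible paralogue Rps27l, by contrast, was at 3.88, 3.80, 3.65 and 3.51, lowest in replicate 4.

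Rpsa, the small subunit protein also known as the laminin receptor, had the largest SD of the 84 detected genes, 0.593. Its brightest probe, a single spot, was at 4.88, 6.26, 5.96 and 5.82, a 2.59-fold span, and its low value was in replicate 1. Its probe with 10 spots gave 3.01, 2.79, 2.84 and 2.77, highest in replicate 1. The 2 probes of this gene therefore disagree on replicate 1. On that array the single spot had a deviation of -1.07 log2 from the median of the other arrays, and the median deviation of the 36 detected spots up to 5 rows and columns away was -0.63. Its unadjusted p was 0.00193 (limma, n = 4). With the spots in such dim areas left out, the span of Rpsa was 0.238 log2. The lowest adjusted p among the members was then 0.968 (limma).

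**Figure D3:**
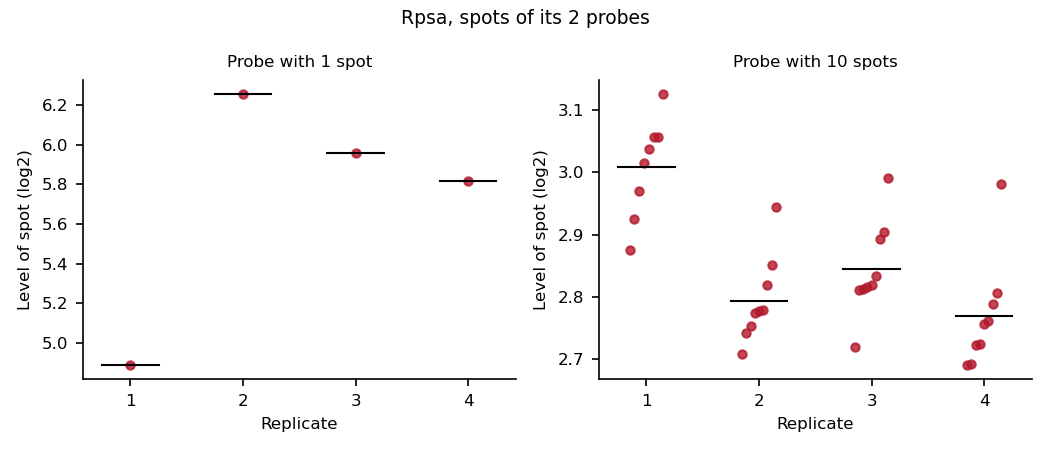
Level of each spot (log2, points) of the 2 Rpsa probes by replicate, with the mean as a bar; spots marked as outliers by the scanner software are left out. The single spot is lowest in replicate 1, at 4.88, whereas the spots of the other probe are highest there, with a mean of 3.01.

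Among the large subunit genes, Rpl35, at the exit of the tunnel, was at 5.58, 5.80, 5.27 and 5.10 in replicates 1 to 4 (SD 0.313). Rpl13 was at 5.63, 5.62, 5.27 and 4.98 (SD 0.311), and Rpl15 at 5.62, 5.67, 5.22 and 5.16. In these 3 genes both values of replicates 1 and 2 lay above both values of replicates 3 and 4. Rps29, Rps24, Rpl35 and Rpl13 each passed an unadjusted p of 0.05, at 0.0268, 0.0186, 0.0343 and 0.0343 (limma, n = 4), and none passed after adjustment.

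Rpl5 and Rpl11 together bind a small ribosomal RNA of the large subunit and, when free, inhibit Mdm2, the ubiquitin ligase of p53. By its brightest probe, a single spot, Rpl5 had the smallest SD of the 84 detected genes, 0.046, with levels of 4.62, 4.68, 4.64 and 4.57. Its probe with 10 spots gave 2.65, 2.36, 2.59 and 2.55 (SD 0.1285), lowest in replicate 2. Rpl11 was at 6.15, 6.08, 5.83 and 5.76. Which of them spanned more depended on the setting: 0.1083 log2 for Rpl5 and 0.3854 for Rpl11 as scaled here, 0.1944 and 0.0701 with quantile normalization, and 0.3676 and 0.1262 with no scaling. Rpl23, which also binds Mdm2, was at 6.03, 6.14, 5.69 and 5.61. Rpl26, at the tunnel exit, was at 5.83, 5.86, 5.57 and 5.41 by its brightest probe. Its other probe, also a single spot, gave 4.27, 5.98, 5.64 and 5.54, lowest in replicate 1, so the probes disagree there as they do for Rpsa; the median deviation of the 50 spots around it was -0.05. With its probes averaged, the span of Rpl26 was 0.872 log2, against 0.451 for the brightest probe.

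Rpl3, beside the centre where peptide bonds form, was at 5.42, 5.57, 5.57 and 5.37, and Rpl4, which lines the tunnel, at 5.02, 5.00, 4.87 and 4.74. Rpl10, which joins the subunit late in its maturation, was at 5.39, 5.43, 5.26 and 5.17. Rpl13a, part of an inflammation-linked translational control complex in human myeloid cells, was at 5.99, 5.98, 5.68 and 5.61. Each of these was lowest in replicate 4.

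Rpl22, needed for T cell development in mice, was at 4.58, 4.76, 4.49 and 4.34, and its paralogue Rpl22l1 at 1.08, 1.05, 0.77 and 0.69. Rpl30 was at 3.92, 3.80, 3.87 and 3.79, Rpl28 at 3.62, 3.57, 3.54 and 3.50, and Rpl23a, a tunnel exit protein, at 4.09, 4.08, 4.06 and 3.97. The last 3 genes spanned less than 1.1-fold by their brightest probes. For Rpl23a that probe is a single spot, lowest in replicate 4, and its other probes, with 10 spots each, were lowest in replicates 1, 2 and 1. The numbered copy Rps19l3 had the largest SD of the detected copies, 0.288, at -1.36, -1.56, -1.69 and -2.04.

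The shared order was also seen across probes. In 55 genes with several detected probes, all probes were lowest in the same replicate in 41, and in all 41 it was replicate 4. This agreement was not counted for other genes with several probes, so it has no background. Of 123 detected probes with 1 spot, 114 were lowest in replicate 4, against 22.8% of 16039 other detected probes with 1 spot. Of 69 probes with 10 spots, 54 (78.3%) were, against 45.3% of 970 others. For the probes with 10 spots the median SD between spots of 1 array was 0.064 and the median SD between arrays 0.138, against 0.072 and 0.118 for the other probes with 10 spots; spot error leaves out differences in labelling and scaling between arrays. Their mean deviation in replicate 4 was -0.14, against -0.05 for those others.

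Brightness moves with this order, and most ribosomal protein genes are bright. At levels of 6 and above, 20 ribosomal protein genes had mean deviations of 0.15, 0.21, -0.13 and -0.22 in replicates 1 to 4, and 27 other genes 0.15, 0.17, -0.13 and -0.19. At levels from 5 to 6, 39 ribosomal protein genes had 0.12, 0.18, -0.09 and -0.21, and 54 others 0.09, 0.08, -0.04 and -0.12. From 4 to 5, 10 ribosomal protein genes had 0.07, 0.05, -0.01 and -0.11, and 119 others 0.06, 0.04, -0.02 and -0.09. The other genes thus showed the same signs in these 3 brightness classes, with values near those of the ribosomal protein genes in the brightest class. In the dimmer classes the sets lay further apart: in replicate 4, 6 ribosomal protein genes at levels from 3 to 4 averaged -0.17, against -0.05 for 270 others, and 4 at levels from 2 to 3 averaged -0.18, against -0.02 for 488 others. Below a level of 2 the others stayed within 0.04 of 0. In the interquartile range of the ribosomal protein genes' levels there were 71 other genes, of which 49 (69%) were lowest in replicate 4. In the wider range from their 5th to their 95th percentile 38.9% of 1626 other genes were. The median level was 5.552 for the ribosomal protein genes, 5.245 for the 71 others and 2.26 for the 1626 others. The wider set is thus mostly dimmer than the ribosomal protein genes. The part of brightness in the shared order was not tested.

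**Figure D4:**
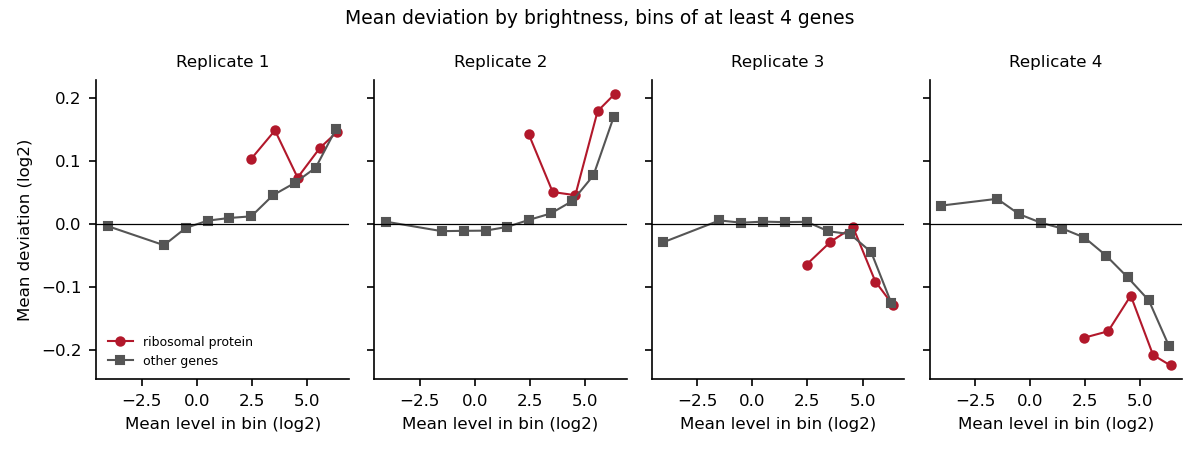
Mean deviation from the gene mean (log2) against mean level (log2) in classes of level, for ribosomal protein genes (red circles) and all other detected genes (grey squares), 1 panel per replicate; classes with under 4 genes are left out. In replicate 4 both sets lie further below 0 in the brighter classes, at -0.22 and -0.19 in the brightest.

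The scaling between arrays set the size of the shared order and, for replicates 1 to 3, its sign. With quantile normalization 41 of 84 ribosomal protein genes (48.8%) were lowest in replicate 4. The share was 23% of all detected genes and 22.3% of the 1626 others, a dimmer set. The mean deviations of the ribosomal protein genes were then 0.005, 0.038, 0.002 and -0.045 in replicates 1 to 4. With each array scaled to its median they were 0.050, -0.004, 0.040 and -0.087; this scaling moved the median of all detected genes to -0.06, -0.17, 0.11 and 0.11. With no scaling they were -0.037, 0.004, 0.101 and -0.068, and all detected genes averaged -0.16, -0.15, 0.17 and 0.14. Replicate 4 was below the members' mean under each of these scalings, and the signs in replicates 1 to 3 were not the same throughout.

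**Figure D5:**
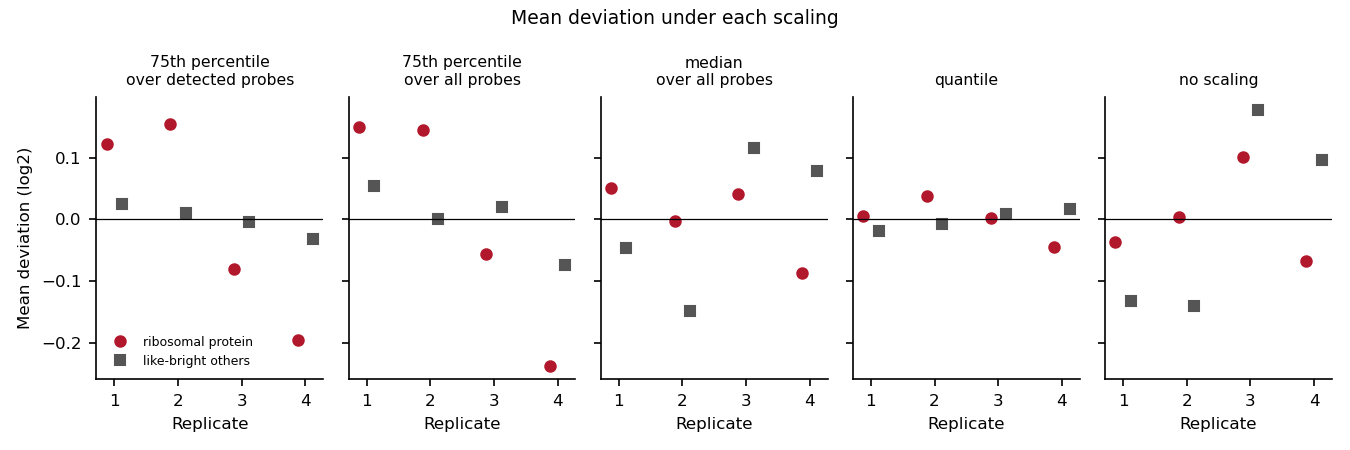
Mean deviation (log2) in each replicate under 5 scalings, for the 84 ribosomal protein genes (red circles) and 1626 other genes (grey squares). The others lie within the 5th to 95th percentile of the ribosomal protein genes' levels but are dimmer, with a median level of 2.26 against 5.552. The range over replicates for the ribosomal protein genes is 0.351 with the 75th percentile over detected probes and 0.083 with quantile normalization.

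Related gene families were set beside them. All 68 mitochondrial ribosomal protein genes, 56 of 59 translation initiation and elongation factors and 46 of 47 proteasome subunits were detected. Their median SDs were 0.110, 0.123 and 0.113, against 0.198 for the cytosolic ribosomal protein genes. The mean deviation in replicate 4 was -0.20 for the cytosolic ribosomal protein genes, against -0.06 for the mitochondrial ones, 0.002 for the translation factors and -0.06 for the proteasome. The difference between families was not tested, and the families differ in brightness. The other families were computed under this scaling only. For the cytosolic ribosomal protein genes the median SD was 0.0665 with quantile normalization, 0.1009 with the median and 0.0957 with no scaling. It was 0.2145 with the 75th percentile over all probes.

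Genes that build or regulate ribosomes were also mostly detected, 67 of 70 measured from a list of 81. All measured genes of small nucleolar RNA particles (7), nucleolar processing (9), large subunit assembly (15), small subunit assembly (11) and growth control (10) were detected. Among 11 genes of ribosomal RNA synthesis, Polr1f, Taf1a and Taf1b were not detected on all arrays. None of the list was called by the variance test; the list's mean deviations were 0.05, 0.01, -0.04 and -0.02 in replicates 1 to 4. Of 7 ribosome-bound proteins that the naming rule left out, 5 were lowest in replicate 4; Rack1, at 4.38, 4.09, 4.21 and 4.12, was lowest in replicate 2 and Serbp1, at 2.49, 2.38, 2.22 and 2.28, in replicate 3. Of the stalk proteins, Rplp0 was at 6.41, 6.44, 5.97 and 5.83, Rplp1 at 6.27, 6.35, 5.92 and 5.84, and Rplp2 at 6.82, 6.79, 6.47 and 6.43, each lowest in replicate 4. Bud23, a methyltransferase of small subunit assembly, was at 1.30, 1.07, 0.99 and 0.62, likewise lowest in replicate 4.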

How the data were processed

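Total RNA of 4 exposed NR8383 samples was labelled with Cy3 and hybridised to rat arrays. Per the file headers, the deposited intensity is the scanner software's processed signal, from which background was already subtracted; the submitters' processing notes name Agilent Feature Extraction 11.0.1.1. The deposited median and local background intensity columns were used in 1 alternative. Control spots and spots flagged as outliers were left out, log2 values of spots of the same probe were averaged, and levels were scaled to the 75th percentile over the probes detected on all arrays (39.3% of the probes). Accessions were named through a RefSeq table of GRCr8, which is not the build of the array design, so no probe coordinates are given. A gene took its brightest probe, detected ones first. The variance test used limma 3.58.1 (R 4.3.3) and the adjusted p threshold was 0.05; the test was tried on simulated data of 8713 genes. The files were read with data.table (version 1.17.8), and figures were drawn with matplotlib 3.10.9 in Python 3.11.15. With 4 arrays, their number limits the precision.

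The members, gene lists and tests were chosen with earlier results of these data known. Genes named are those not detected, the 8 with the largest and the 4 with the smallest SD, those whose probes disagree, and a list of roles, some of which are not reported here; Polr1f, Taf1a, Taf1b, Rplp0, Rplp1, Rplp2, Rack1, Serbp1 and Bud23 were added to the named genes with their values known. The alternatives were other detection rules, scalings, background corrections and probe choices, and each replicate left out. Normexp used the median spot signal. Deviations in replicate 4, dim areas, no scaling and the probe with the most spots were added after seeing the data.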

Additional observations from a re-analysis of the deposited data

Results flagged for a closer look

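By Dixon's criterion, 1 replicate stood apart from the rest in none of the ribosomal protein genes. Of 156 sets of 4 values checked, 5 genes of ribosome assembly or its control did, where chance gives about 1 in 20, or 7.8. The gap to the nearest replicate as a share of the whole range was 0.862 for Ubtf, a factor of ribosomal RNA synthesis (0.48, 0.74, 0.44 and 0.48 in replicates 1 to 4). It was 0.915 for Dkc1, the pseudouridine synthase of small nucleolar RNA particles, whose levels spanned 0.04 log2 in all (1.65, 1.69, 1.65 and 1.66). It was 0.855 for Bop1, of large subunit assembly (0.98, 0.68, 0.63 and 0.68), and 0.847 for Dimt1, of small subunit assembly (-2.45, -2.27, -2.30 and -2.28). It was 0.841 for Myc, a transcription factor that drives ribosome production (0.40, 0.01, 0.06 and 0.07).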

How the results depend on the processing

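The count of detected ribosomal protein genes was 82 to 87 under other detection rules. Under the median over all probes and under no scaling, 1 ribosomal protein gene was called variable, Rpsa (limma, adjusted p = 0.0147 and 0.00152). The level of Rpsa there is that of its single spot, on which its probes disagree in replicate 1. No share of all detected genes called is given for these scalings, so the call has no background. Under every other setting run 0 were called. The lowest adjusted p there ranged from 0.0573 without replicate 4 to 0.974 with probes averaged (limma). The median SD was 0.0665 with quantile normalization, 0.1009 with the median, 0.0772 with normexp and quantile together and 0.0957 with no scaling. In the same order, the range of the mean deviation was 0.083, 0.1373, 0.0799 and 0.169, and the mean deviation in replicate 4 was -0.0447, -0.0871, -0.044 and -0.0681. The count lowest in replicate 4 was 41 with quantile normalization and 37 with normexp and quantile together. Leaving out each replicate in turn gave a median SD of 0.168 to 0.226, and a range of 0.243 to 0.359. Leaving out replicates 1, 2 and 3 in turn gave 78 to 79 genes lowest in replicate 4 and a mean deviation there of -0.228 to -0.144. The share of all detected genes was not computed with a replicate left out or with normexp. Those counts therefore have no background, and with fewer arrays any gene is more often lowest in replicate 4. Beyond what the scalings change by construction, the cause was not tested. The span of 44 single genes was recomputed 616 times and moved by more than 1 SD in 124. No paired analysis was possible because there is 1 group. The signal of 4 genes was too near background to give a level.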

Other observations

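Replicates 3 and 4 differed little in most genes but kept a common order in the ribosomal protein genes. Of 84, 82 were higher in replicate 3 than in replicate 4, against 47.9% of all detected genes. The share was 64.3% of the 1626 others, which are mostly dimmer, with a median level of 2.26 against 5.552. The median absolute difference was 0.105 log2 in the ribosomal protein genes, against 0.0847 over all detected genes. Between replicates 1 and 2, 33 were higher in replicate 1 and 51 in replicate 2, with a median absolute difference of 0.068, against 0.1755 over all detected genes.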
